A study of Mus musculus with 8 samples.

Results

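The tissue inhibitors of metalloproteinases (TIMPs) are the 4 genes Timp1, Timp2, Timp3 and Timp4. They were picked by gene name, with earlier results of the data known. All 4 were among the 28956 genes listed in single-cell RNA sequencing data of mouse femoral stromal cells. They were also among the 26180 genes found in at least 3 cells. All mice were C57BL/6 by the labels, and females by the study's methods for its fracture model. The Fracture group came from 12-week-old mice that had undergone femoral fracture at 10 weeks, with an intramedullary nail to hold the bone, and cells were taken at day 14. The Control group came from unfractured mice of the same age. Each group held 2 cell preparations, and each preparation gave 2 droplet libraries, which were summed, so that n = 2 preparations per group throughout. The labels do not say how many mice went into a preparation, and p-values then measure the spread between these preparations, which may be technical. Blood cells had been depleted with antibody-coated beads before encapsulation in both groups.

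TIMPs are small secreted proteins that bind and block matrix metalloproteinases (MMPs), the zinc enzymes that cut collagens and other matrix proteins. Timp1 is soluble and is induced by cytokines and growth factors in many tissues under repair. Timp2 blocks MMPs and also takes part in the activation of Mmp2 at the cell surface together with the membrane-type enzyme Mmp14. Timp3 stays bound to the extracellular matrix and also inhibits ADAM and ADAMTS enzymes, among them the aggrecan-cutting Adamts4 and Adamts5, and Timp4 is the member with the most restricted expression, known from heart, vessels and fat. In a healing fracture, MMPs of chondrocytes and stromal cells take apart the cartilage of the callus as bone replaces it.

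The libraries held 56543151 to 89126291 unique molecular identifiers (UMIs), 1 UMI standing for 1 captured transcript. Of 48903 barcodes, 45328 passed the filters of the study, which kept 85.6% of Control and 99.6% of Fracture barcodes. The smallest barcode held 1 to 3 UMIs in the Control libraries and 1929 to 2724 UMIs in the Fracture libraries, so that the barcodes had not been chosen alike in the groups. The median cell held 7711 UMIs in the Control group and 11351 UMIs in the Fracture group. No library shared more than 23 barcodes with another. Clusters were named from marker lists, with TIMP and protease genes left out of the genes that formed them. Chondrocyte-like, osteoblast-like, bone mesenchymal stromal cell (BMSC)-like, fibroblast-like, endothelial-like and smooth muscle-like cells made up the 6 stromal classes, and erythroid-like, granulocyte-like and megakaryocyte-like cells were the named blood classes. Levels are given as counts of a gene per 1000000 UMIs of its class in a preparation (CPM). The class names rest on these lists, and the summed level of a class's own markers was lower in both Fracture preparations in 5 of the 6 stromal classes, all but chondrocyte-like cells (95280 and 85560 CPM in Control, 100700 and 100100 CPM in Fracture). The summed level of the BMSC markers in BMSC-like cells was 34210 and 35510 CPM in Control and 2836 and 3469 CPM in Fracture, that of the fibroblast markers in fibroblast-like cells 21040 and 23030 against 7892 and 8404 CPM, and that of the smooth muscle markers in smooth muscle-like cells 41320 and 39000 against 20140 and 21660 CPM. Osteoblast markers in osteoblast-like cells stood at 107400 and 124500 against 46780 and 59950 CPM, and endothelial markers in endothelial-like cells at 7830 and 7619 against 5946 and 5847 CPM.

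In the mouse genome (GRCm38, GENCODE M21) the 4 genes lie on different chromosomes. Timp1 (ENSMUSG00000001131) spans 20870166 to 20874735 of chromosome X on the plus strand. Timp2 (ENSMUSG00000017466) spans 118301069 to 118355740 of chromosome 11 on the minus strand. Timp3 (ENSMUSG00000020044) spans 86300372 to 86349506 of chromosome 10 on the plus strand, and Timp4 (ENSMUSG00000030317) spans 115241892 to 115252205 of chromosome 6 on the minus strand. All 4 are protein-coding, and 3 of them sit within a synapsin gene on the opposite strand, Timp1 in Syn1, Timp3 in Syn3 and Timp4 in Syn2. The sources used here do not state whether reads were counted by strand. Exons of Timp1 and Syn1 shared 0 bases, those of Timp4 and Syn2 90 bases and those of Timp3 and Syn3 1733 bases. The synapsin genes, which act at nerve terminals, were at 1.00 to 2.47 CPM over all cells in every preparation.

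The 250 bases before the start site of Timp1 and Timp4, the members that moved in opposite directions in every stromal class where both were tested, are shown from RefSeq (GRCm38.p6), 5′ to 3′ on the strand of the gene. Capitals mark a GC box, GGGCGG on either strand.
Timp1, chrX:20869916-20870165, plus strand: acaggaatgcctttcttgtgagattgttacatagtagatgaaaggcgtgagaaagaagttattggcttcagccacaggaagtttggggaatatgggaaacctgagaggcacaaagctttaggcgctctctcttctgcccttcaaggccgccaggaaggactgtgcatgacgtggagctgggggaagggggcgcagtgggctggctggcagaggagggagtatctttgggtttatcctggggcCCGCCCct
Timp4, chr6:115252206-115252455, minus strand: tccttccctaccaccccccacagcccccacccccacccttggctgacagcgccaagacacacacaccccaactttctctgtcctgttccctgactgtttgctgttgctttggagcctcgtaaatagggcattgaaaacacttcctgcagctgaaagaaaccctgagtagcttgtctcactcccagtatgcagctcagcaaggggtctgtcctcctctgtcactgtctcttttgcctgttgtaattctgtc
In the window of 300 bases that runs to 50 bases past the start site, G and C made up 55.0% for Timp1, 68.7% for Timp2, 67.0% for Timp3 and 53.3% for Timp4, and the median of 32544 RefSeq promoters was 53.0%. A GC box was found once for Timp1 and Timp2, 2 times for Timp3 and not for Timp4, and 35.9% of all promoters hold one. The AP-1-like letters TGAGTAA, searched on both strands, were found once, 27 bases past the start site of Timp1, and stand in 2.64% of all promoters. Neither the AP-1 letters TGANTCA (7.79% of all promoters) nor TATAAA (13.6%) was found for any member. The motifs were chosen after the sequences had been seen, and such matches are letters, not shown sites.

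The reads were taken at the 3 prime end and counted as molecules, so that CPM values of different genes can be set side by side without a correction for length. Timp1 and Timp2 were highest in fibroblast-like cells in both groups, Timp4 was highest in smooth muscle-like cells in both groups, and Timp3 was highest in endothelial-like cells in Control and in chondrocyte-like cells in Fracture. These orders are descriptions, since the classes come from the same cells.

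**Figure D1:**
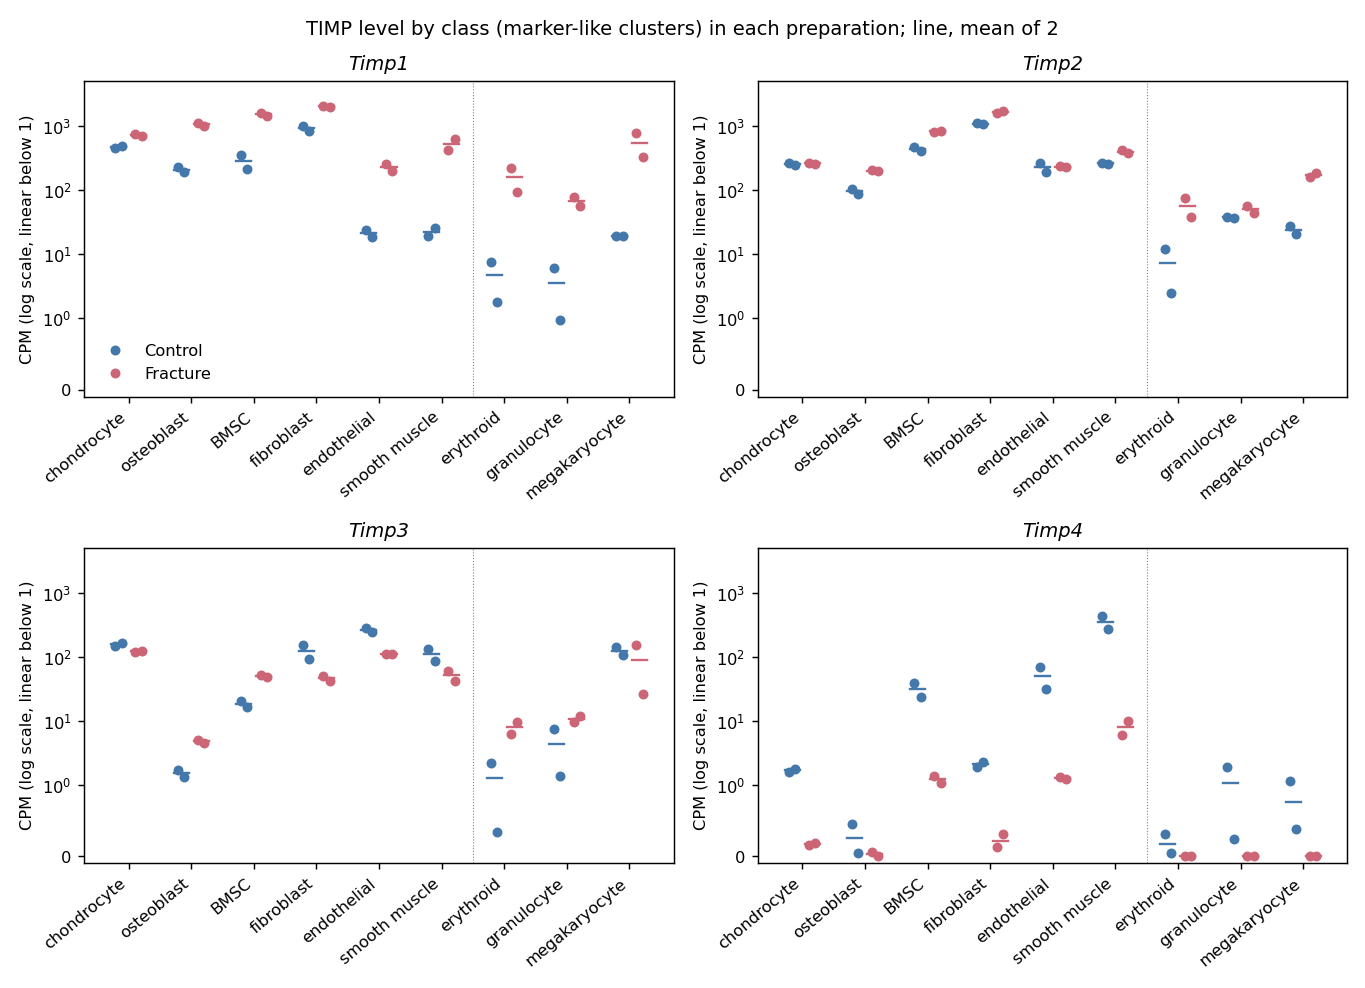
Level of each TIMP gene in CPM (log scale, linear below 1) in the 6 stromal and 3 blood classes, with a point for each preparation and a line at the mean of 2. Timp1 lies higher in both Fracture than in both Control preparations in every class drawn, and Timp4 lies lower in both Fracture preparations in every class but osteoblast-like cells, where the groups overlap.

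In Control, Timp1 stood at 913 ± 126 CPM (SD, n = 2) in fibroblast-like, 462 ± 24.3 in chondrocyte-like, 284 ± 96.1 in BMSC-like, 207 ± 25.1 in osteoblast-like, 22.3 ± 4.76 in smooth muscle-like and 21.1 ± 3.904 CPM in endothelial-like cells. The preparations of BMSC-like and osteoblast-like cells overlapped, as did those of smooth muscle-like and endothelial-like cells. In Fracture no neighbours in the order overlapped, and BMSC-like and osteoblast-like cells had passed chondrocyte-like cells. Fracture levels of Timp1 were 2020 ± 53.7 CPM in fibroblast-like, 1505 ± 127 in BMSC-like, 1057 ± 65.1 in osteoblast-like, 713 ± 34.7 in chondrocyte-like, 525 ± 141 in smooth muscle-like and 226 ± 37.8 CPM in endothelial-like cells. For Timp2 the order of the classes was the same in both groups, from 1082 ± 22.9 CPM in fibroblast-like and 435 ± 48.8 in BMSC-like cells to 95.4 ± 13.04 CPM in osteoblast-like cells of Control. The middle of that order, smooth muscle-like, chondrocyte-like and endothelial-like cells, overlapped in Control. Timp3 was close to absent from osteoblast-like cells, at 1.51 ± 0.270 CPM in Control and 4.78 ± 0.282 CPM in Fracture, while the other classes stood between 18.5 and 263 CPM. Timp4 was the most uneven member, with 353 ± 118 CPM in smooth muscle-like, 49.9 ± 26.4 in endothelial-like and 31.1 ± 10.8 in BMSC-like cells of Control, and at most 2.10 CPM in the remaining stromal classes.

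The main comparison asked how TIMP expression differed between fractured and unfractured bone. The pool of stromal cells differed in makeup, since chondrocyte-like cells made up 16.1% and 8.52% of all cells in Control and 57.3% and 55.6% in Fracture, and the summed chondrocyte markers in stromal cells stood at 34830 and 22340 against 68490 and 67190 CPM. Stromal cells made up 71.6% and 63.1% of all cells in Control and 97.2% and 96.9% in Fracture. The part of this makeup in the pooled values was not tested. Over all stromal cells, Timp1 stood at 316 and 245 CPM in Control and 880.4 and 821 CPM in Fracture, and edgeR called it higher by 1.80 on the log2 scale (SE 0.17, Benjamini-Hochberg adjusted p 0.00637, n = 2 per group). Timp2 stood at 271 and 233 CPM in Control and 369 and 376 CPM in Fracture, which gave 0.77 (SE 0.12, edgeR adjusted p 0.0143). Timp3 stood at 89.8 and 79.5 CPM in Control and 94.2 and 95.2 CPM in Fracture, which gave 0.37 (SE 0.10, edgeR adjusted p 0.0447). Timp4 went the other way, from 31.1 and 16.4 CPM down to 0.393 and 0.421 CPM, for a value of -5.67 (SE 0.42, edgeR adjusted p 0.00466). Thus all 4 members were called, 3 higher and 1 lower, among 19813 genes of which 39.6% were called. Fracture and Control preparations did not overlap for any of the 4, and the share of all genes without overlap was not counted.

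Over all cells, blood classes included, 28.5% of genes were called. Timp1 (2.43), Timp2 (1.35) and Timp4 (-5.08) were among them and Timp3 was not (0.83, edgeR adjusted p 0.0695). Without either Fracture preparation none of the 4 was called over all cells (edgeR adjusted p 0.121 to 0.323), and neither was any other gene, with 4008 and 4136 genes at an unadjusted p under 0.05. The fold changes use TMM scaling, which set the stromal log2 values 0.206 above those of plain CPM, more than for any single stromal class (-0.068 to 0.192). The stromal value of Timp3, 0.37, includes that shift. Its call was lost without either Fracture preparation (adjusted p 0.216 and 0.227). Those of Timp1 (0.0634 and 0.0562) and Timp2 (0.106 and 0.107) were lost there too, and that of Timp4 without Fracture 1 (0.0540).

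**Figure D2:**
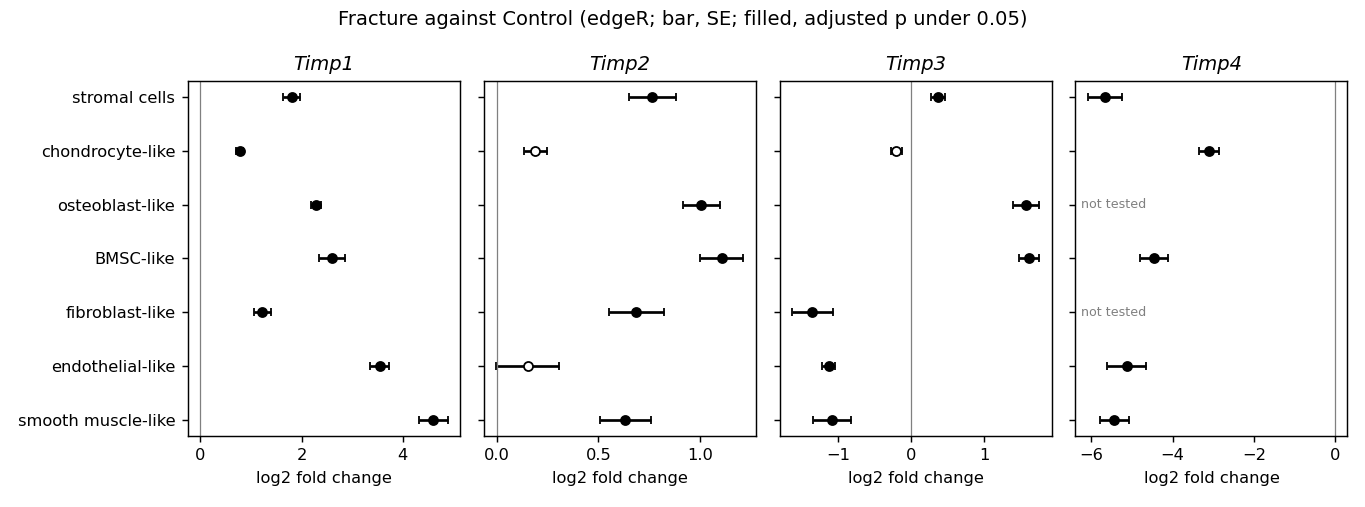
Log2 fold change of each TIMP gene, Fracture against Control, from edgeR in all stromal cells and in each stromal class, with the SE as a bar and filled points for an adjusted p under 0.05. Timp1 lies to the right of 0 and Timp4 to the left in every class tested, and Timp3 lies on both sides.

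Timp1 rose in all 6 stromal classes. Its rise was smallest in chondrocyte-like cells, from 444 and 479 to 737 and 688 CPM (log2 fold change 0.77, SE 0.07, edgeR adjusted p 0.00481, in a class where 37.1% of genes were called). In fibroblast-like cells, where it was highest, it went from 1002 and 824 to 2058 and 1982 CPM (1.23, SE 0.17, edgeR adjusted p 0.02, 14.9% of genes called). Both groups were apart in both classes, with the higher Control preparation well below the lower Fracture one.

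In osteoblast-like cells Timp1 rose from 225 and 189 to 1103 and 1011 CPM (2.29, SE 0.09, edgeR adjusted p 0.00226, 16.8% of genes called). In BMSC-like cells it rose from 352 and 216 to 1595 and 1415 CPM (2.60, SE 0.26, edgeR adjusted p 0.00299, 51.8% of genes called). These are the matrix-forming and marrow stromal classes, and in both the Fracture preparations stood above the level of the fibroblast-like cells of Control. The vessel classes started near 20 CPM and had the steepest rises. Endothelial-like cells went from 23.8 and 18.3 to 253 and 199 CPM (3.54, SE 0.19, edgeR adjusted p 0.00557, 35.9% of genes called), and smooth muscle-like cells from 18.9 and 25.6 to 425 and 624 CPM (4.60, SE 0.28, edgeR adjusted p 0.00236, 26.6% of genes called). The 8 fibroblast markers in smooth muscle-like cells stood at a summed 768 and 741 CPM in Control and 1795 and 2402 CPM in Fracture, and in BMSC-like cells at 110 and 41.6 against 809 and 873 CPM. The chondrocyte markers in BMSC-like cells stood at 911 and 433 against 4061 and 4197 CPM. The part of these markers in the values of Timp1 was not tested.

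Fits without Fracture 1 or Fracture 2 called fewer genes of any kind in all 6 classes. They called 0 genes in chondrocyte-like, osteoblast-like, fibroblast-like and endothelial-like cells (edgeR, with 1591 to 4671 genes at an unadjusted p under 0.05), 18% and 20.9% in BMSC-like cells and 5.63% and 7.08% in smooth muscle-like cells. The calls of Timp1 were kept in BMSC-like and smooth muscle-like cells. In the 4 classes where no gene was called the log2 fold changes of Timp1 were 0.75 and 0.83 in chondrocyte-like, 2.25 and 2.31 in osteoblast-like, 1.21 and 1.25 in fibroblast-like and 3.38 and 3.71 in endothelial-like cells, with adjusted p of 0.0836 and 0.0756 in chondrocyte-like, 0.105 and 0.0861 in osteoblast-like, 0.289 and 0.303 in fibroblast-like and 0.112 and 0.0972 in endothelial-like cells (edgeR). In clusters made without integration, the BMSC-like value was 1.44 with an adjusted p of 0.0585. That cluster held 2073 and 1464 Control cells and 88 and 115 Fracture cells, against 1030 and 1109 Fracture cells with integration. Of all genes, 0.872% were called in it. The BMSC-like values without integration given below for other members come from the same cluster.

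Timp2 rose in 4 of the 6 classes, by less than Timp1. In BMSC-like cells it went from 469 and 400.1 to 808 and 828 CPM (1.10, SE 0.11, edgeR adjusted p 0.00284). Osteoblast-like cells showed a rise of 1.00 on the log2 scale (SE 0.09, edgeR adjusted p 0.00793), to 200.4 ± 7.24 CPM from 95.4 ± 13.04 CPM (SD, n = 2). The rises in fibroblast-like cells, from 1098 and 1066 to 1602 and 1686 CPM (0.69, SE 0.14, edgeR adjusted p 0.0374), and in smooth muscle-like cells (0.63, SE 0.13, edgeR adjusted p 0.0199) were smaller. In chondrocyte-like (0.19, SE 0.06, edgeR adjusted p 0.0581) and endothelial-like cells (0.15, SE 0.15, edgeR adjusted p 0.476) Timp2 did not pass the test. The BMSC-like call of Timp2 was kept without either Fracture preparation and lost in clusters made without integration (0.21, adjusted p 0.399). Without Fracture 1 and Fracture 2, the other 3 calls were lost, in osteoblast-like and fibroblast-like cells together with those of all genes. The log2 fold changes of Timp2 were then 1.00 and 1.00 in osteoblast-like, 0.73 and 0.65 in fibroblast-like and 0.55 and 0.71 in smooth muscle-like cells, with adjusted p of 0.157 and 0.129 in osteoblast-like, 0.400 and 0.428 in fibroblast-like and 0.120 and 0.0730 in smooth muscle-like cells.

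Timp3 was called in 5 of the 6 classes, higher in 2 and lower in 3. In BMSC-like cells it rose from 20.6 and 16.5 to 51.8 and 48.0 CPM (1.62, SE 0.14, edgeR adjusted p 0.00225), and in osteoblast-like cells from 1.70 and 1.32 to 4.98 and 4.58 CPM (1.58, SE 0.18, edgeR adjusted p 0.0121). In endothelial-like cells, the class with its highest CPM in Control, it fell from 283 and 243 to 109.9 and 111 CPM (-1.13, SE 0.09, edgeR adjusted p 0.00588). This class thus stood below chondrocyte-like cells in Fracture (119.8 and 124 CPM).

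In fibroblast-like cells Timp3 fell from 154 and 93.1 to 50.3 and 42.0 CPM (-1.36, SE 0.28, edgeR adjusted p 0.0409), and in smooth muscle-like cells from 131 and 87.0 to 60.1 and 42.1 CPM (-1.08, SE 0.26, edgeR adjusted p 0.0348). Markers of other cell types moved in fibroblast-like cells, with 3 Schwann cell markers at a summed 423 and 719 CPM in Control and 1.81 and 3.07 CPM in Fracture, and 10 chondrocyte markers at 4047 and 3396 against 13680 and 12300 CPM. Their part in the values of this class was not tested. In chondrocyte-like cells the preparations did not overlap, at 148 and 163 CPM in Control and 119.8 and 124 CPM in Fracture, but the difference did not pass the test (-0.21, SE 0.08, edgeR adjusted p 0.101). Without Fracture 1 and Fracture 2, the call in BMSC-like cells was kept, and the adjusted p of Timp3 was 0.176 and 0.146 in osteoblast-like, 0.112 and 0.0972 in endothelial-like, 0.314 and 0.369 in fibroblast-like and 0.0929 and 0.176 in smooth muscle-like cells. No gene was called in the first 3 of these classes in those fits, and the log2 fold changes of Timp3 were 1.55 and 1.604, -1.10 and -1.14, -1.47 and -1.22, and -1.35 and -0.85 in the same order. The BMSC-like value was 2.51 with an adjusted p of 0.0720 in clusters made without integration, on 88 and 115 Fracture cells.

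Timp4 fell in the 4 classes where it had enough UMIs to be tested. In smooth muscle-like cells it went from 436 and 269.6 CPM in Control to 5.95 and 10.1 CPM in Fracture (-5.43, SE 0.36, edgeR adjusted p 0.00244), on 1592 and 347 UMIs against 9 and 16. In endothelial-like cells it went from 68.5 and 31.2 to 1.35 and 1.26 CPM (-5.13, SE 0.48, edgeR adjusted p 0.00632). Control preparation 1 stood above Control preparation 2 in both classes, by a ratio far smaller than the gap between the groups.

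In BMSC-like cells Timp4 went from 38.7 and 23.4 to 1.4 and 1.06 CPM (-4.46, SE 0.34, edgeR adjusted p 0.00200), and in chondrocyte-like cells, where it was scarce, from 1.603 and 1.79 to 0.158 and 0.187 CPM (-3.10, SE 0.25, edgeR adjusted p 0.00368). Osteoblast-like cells held 14, 1, 1 and 0 UMIs of Timp4 and fibroblast-like cells 6, 3, 1 and 3 in Control 1, Control 2, Fracture 1 and Fracture 2, too few for the test. The smooth muscle-like and BMSC-like calls of Timp4 were kept without either Fracture preparation, and the adjusted p was 0.0836 and 0.0778 in chondrocyte-like and 0.113 and 0.102 in endothelial-like cells, where those fits called 0 genes and the log2 fold changes of Timp4 were -2.98 and -3.24 and -5.15 and -5.07. In clusters made without integration the BMSC-like value was -1.22 (edgeR adjusted p 0.178), on 88 and 115 Fracture cells. Not all markers of smooth muscle-like cells moved with Timp4. Rgs5 stood there at 7589 and 11970 CPM in Control and 8698 and 8282 CPM in Fracture, where the groups overlapped. Acta2 stood at 16200 and 12660 CPM in Control and 6441 and 7739 CPM in Fracture. Myh11, the smooth muscle myosin heavy chain, stood at 3805 and 3348 CPM in Control and 533 and 772 CPM in Fracture. The part of such shifts within a class in the fall of Timp4 was not tested. In the cells with at least 2 UMIs of Myh11 the level of Timp4 was 450.4 and 284 CPM in Control and 8.54 and 14.98 CPM in Fracture.

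Whether the response to fracture differed between classes was tested for each of the 15 pairs of stromal classes, with a class-by-group term in edgeR and the preparation as a block. The effects of Timp1 differed in 12 pairs, those of Timp3 in 11, those of Timp2 in 7 and those of Timp4 in 3. Of all genes tested, the effects that differed were 28.9%, 46.3%, 16.9%, 37.4% and 23.6% for chondrocyte-like cells against osteoblast-like, BMSC-like, fibroblast-like, endothelial-like and smooth muscle-like cells. They were 36.8%, 15.3%, 28.6% and 20.1% for osteoblast-like cells against the last 4 of these classes, and 19.9%, 26.2% and 18.6% for BMSC-like cells against the last 3. They were 14.2% and 9.2% for fibroblast-like cells against the vessel classes and 12.3% between the vessel classes. For the pairs that follow, the osteoblast-like level of Timp3 in Fracture was below that of erythroid-like cells. The 6 pairs that set osteoblast-like or BMSC-like cells, where Timp3 rose, against fibroblast-like, endothelial-like or smooth muscle-like cells, where it fell, all passed, with log2 differences of 2.63 to 2.93. They passed with each preparation left out in turn and with called doublets removed. The effect of Timp1 was smaller in chondrocyte-like than in smooth muscle-like cells by 3.86 on the log2 scale (SE 0.25, edgeR adjusted p 3.07e-08). This was the widest gap of Timp1. In Fracture, Timp1 stood at 425 and 624 CPM in smooth muscle-like and 224 and 94.3 CPM in erythroid-like cells. The part of free RNA in this gap was not tested. Between osteoblast-like and BMSC-like cells, the responses of Timp1 (-0.34, SE 0.13, edgeR adjusted p 0.0719), Timp2 (-0.10, SE 0.07, 0.339) and Timp3 (-0.03, SE 0.20, 0.944) did not pass the test.

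The chondrocyte-like class was made of 2 clusters that took different shares of the groups. Cluster 0, led by Col10a1 and Ihh, genes of hypertrophic and prehypertrophic chondrocytes, held 1124 and 390 Control cells and 5614 and 5885 Fracture cells. Cluster 4, led by the protease inhibitor genes Serpina1a, Serpina1b and Serpina1d, held 936 and 285 Control cells and 1181 and 1229 Fracture cells. Without integration, the cluster with Col10a1 and Ihh among its top genes held 142 and 60 Control cells and 5575 and 5833 Fracture cells. The Serpina1 cluster then held 1786 and 571 Control cells and 1224 and 1271 Fracture cells. The part of this in the values of the integrated clusters was not tested. In cluster 0, Timp3 fell from 210.2 and 227 to 114.8 and 124 CPM (-0.78, SE 0.08, edgeR adjusted p 0.00471, 30.2% of genes called), and Timp1 did not pass the test (0.24, SE 0.08, edgeR adjusted p 0.0718). In cluster 4, Timp3 rose from 67.9 and 78.0 to 146 and 124 CPM (1.00, SE 0.12, edgeR adjusted p 0.0180, 13.9% of genes called), and Timp1 rose by 1.80 (SE 0.08, edgeR adjusted p 0.00373). The difference between the clusters was not tested. Without Fracture 1 and Fracture 2 these calls were lost, with adjusted p of 0.0698 and 0.0553 for Timp3 in cluster 0, 0.199 and 0.171 for Timp3 in cluster 4 and 0.108 and 0.0977 for Timp1 in cluster 4. Those fits called 2.44% and 2.96% of genes in cluster 0 and 1 gene in cluster 4, and gave log2 fold changes of -0.73 and -0.85 for Timp3 in cluster 0, 0.898 and 1.10 for Timp3 in cluster 4 and 1.72 and 1.89 for Timp1 in cluster 4.

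A second clustering of 14651 fibroblast-like, BMSC-like and osteoblast-like cells followed the study's names dpMSC, for the diaphysis, and mpMSC, for the metaphysis. In dpMSC-like cells Timp1 rose from 70.8 and 41.8 to 1899 and 1705 CPM (5.24, SE 0.31, edgeR adjusted p 0.000515, 54% of genes called), the largest rise of Timp1 among the stromal classes and subclasses tested. Timp3 rose there from 5.70 and 5.38 to 37.8 and 39.0 CPM (3.03, SE 0.14, edgeR adjusted p 0.000385), Timp2 by 1.51 (SE 0.13, edgeR adjusted p 0.00113) and Timp4 fell from 67.4 and 33.4 to 3.35 and 2.45 CPM (-3.87, SE 0.43, edgeR adjusted p 0.00209). The cells that carry this name in Fracture were unlike those of Control in their own markers.

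Adipoq, a gene of adipocyte-primed stromal cells, stood in dpMSC-like cells at 3527 and 3132 CPM in Control and 211 and 294.5 CPM in Fracture, and the chemokine gene Cxcl12 at 32890 and 28170 against 2221 and 2851 CPM. Postn, a matrix gene of periosteum and repair tissue, stood there at 9.73 and 1.75 CPM in Control and 2072 and 1940 CPM in Fracture. Markers of other cell types were higher there in Fracture, the fibroblast markers at 32.9 and 22.6 against 1331 and 1362 CPM, the chondrocyte markers at 600.1 and 255 against 4423 and 4544 CPM and the smooth muscle markers at 771 and 717 against 2910 and 2375 CPM. The part of these changes of cells in the TIMP values was not tested. The mpMSC-like cells differed between the groups too. Postn was at 1065 and 814 CPM there in Control and 807 and 782 CPM in Fracture, but Cxcl12 was at 4982 and 5674 against 869 and 871 CPM, the summed mpMSC markers at 2906 and 2831 against 1534 and 1556 CPM and the summed BMSC markers at 7501 and 8428 against 1672 and 1692 CPM. In these cells Timp1 rose from 691 and 575 to 1670 and 1560 CPM (1.49, SE 0.11, edgeR adjusted p 0.003, 28% of genes called), Timp2 by 0.66 (SE 0.09, edgeR adjusted p 0.00970) and Timp3 by 0.97 (SE 0.10, edgeR adjusted p 0.00488). Timp4 was held there by 17 and 9 UMIs in Control and 0 in Fracture. Calls in dpMSC-like cells were kept without either Fracture preparation except that of Timp4 (0.0652 and 0.0628), and calls in mpMSC-like cells were lost, with adjusted p of 0.0514 to 0.0812. Of all genes those fits called 17% and 24.8% in dpMSC-like cells and 0 and 76 genes in mpMSC-like cells (edgeR, 3520 and 3730 at an unadjusted p under 0.05), where the log2 fold changes were 1.46 and 1.53 for Timp1, 0.73 and 0.61 for Timp2 and 0.94 and 1.01 for Timp3.

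Within classes, TIMP levels were set beside cell states, which were marked by at least 2 UMIs of a state gene and are descriptions. Chondrocyte-like cells with Col10a1 held 329.5 and 349.9 CPM of Timp3 in Control, and those without it 65.3 and 87.0 CPM. In Fracture the values were 123 and 128 CPM with Col10a1 and 68.1 and 59.0 CPM without it. Sorting by Ihh, a signal of prehypertrophic cells, gave 357 and 352 CPM with it in Control and 159.7 and 169.7 CPM in Fracture, against 80.9 and 83.4 and then 85.7 and 84.4 CPM without it. Proliferating chondrocyte-like cells, with Top2a, stood at 52.7 to 63.4 CPM of Timp3 in all 4 preparations. Col10a1 was found in 510 of 2060 and 163 of 675 Control cells and in 6218 of 6795 and 6486 of 7114 Fracture cells. Endothelial-like cells held Col10a1 at 130 and 89.2 CPM in Control and 2276 and 2311 CPM in Fracture. Free RNA of so abundant a gene can give a cell 2 UMIs, so that the cut need not mark the same state in both groups. The part of free RNA in this sorting was not tested.

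**Figure D3:**
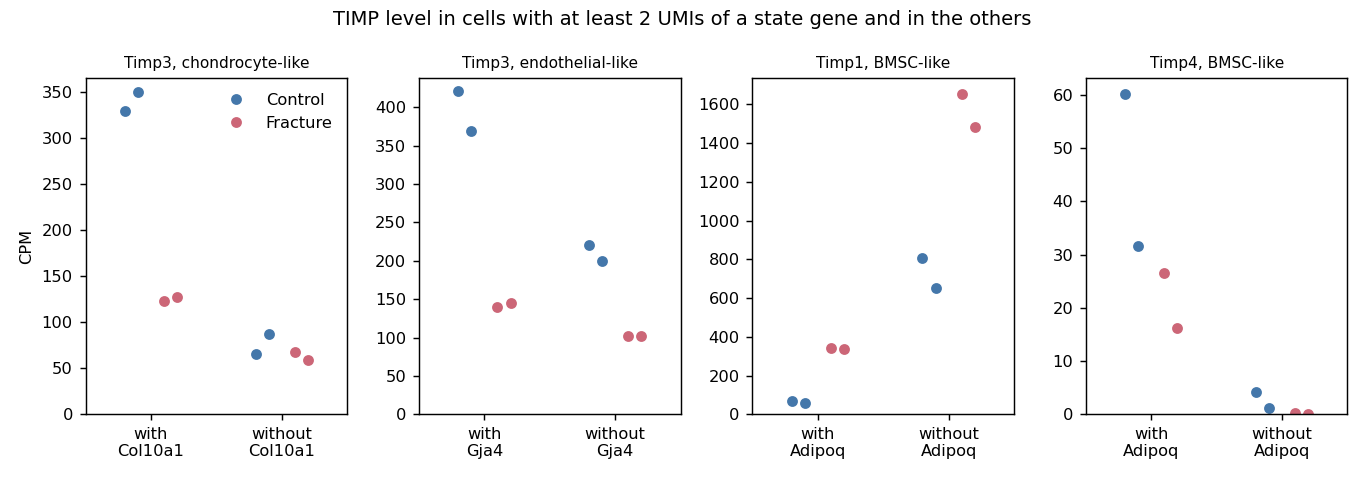
Level of Timp3, Timp1 or Timp4 in CPM in cells of a class with at least 2 UMIs of the state gene named under each pair of columns and in the other cells, with a point for each preparation. Timp3 is highest in Control cells with Col10a1 or Gja4, Timp1 is highest in BMSC-like cells without Adipoq, and Timp4 in those with Adipoq.

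In endothelial-like cells, Timp3 was higher in cells with Gja4, a gap junction gene of arterial endothelium, at 422 and 369 CPM in Control and 139.8 and 145 CPM in Fracture, than in cells without it, at 220.3 and 199.8 and then 102 and 102 CPM. It was thus lower in Fracture on both sides of the split. Timp4 was almost limited to endothelial-like cells without Stab2, the scavenger receptor of sinusoids, which held 98.9 and 53.7 CPM in Control, against 1.09 and 1.43 CPM in cells with Stab2. In Fracture the cells without Stab2 held 1.61 and 1.32 CPM of Timp4.

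BMSC-like cells with Adipoq held 67.9 and 56.4 CPM of Timp1 in Control and 341 and 336 CPM in Fracture. Those without Adipoq held 808 and 650.0 CPM in Control and 1654 and 1484 CPM in Fracture. Timp1 was thus higher in Fracture on both sides. Timp4 had the opposite pattern, with 60.1 and 31.6 CPM in Adipoq cells of Control and 4.27 and 1.18 CPM in the others. In Fracture it was at 26.6 and 16.2 CPM with Adipoq, from 12 and 11 UMIs in 63 and 90 cells, and at 0.209 and 0.0939 CPM without it. The cells with Adipoq numbered 1711 and 1270 in Control. Timp4 was lower in both Fracture preparations on both sides, and the part of the number of Adipoq cells in the value of the whole class was not tested. BMSC-like cells with Mmp9 held 855 and 854 CPM of Timp1 in Control and 1671 and 1257 CPM in Fracture. Those without Mmp9 held 318 and 181 CPM in Control and 1569 and 1464 CPM in Fracture, where the cells with and without Mmp9 overlapped. Lrrc15, a gene of activated fibroblasts, was found at 2 UMIs or more in 0 Control cells and in 131 and 133 Fracture cells, which held 1968 and 2151 CPM of Timp1 and 0 UMIs of Timp4, against 1514 and 1272 CPM of Timp1 in the other Fracture cells. Fibroblast-like cells with Prg4, the lubricin gene of joint-lining and superficial cells, held 1050 and 1023 CPM of Timp1 in Control and 2454 and 2402 CPM in Fracture, and those without it 863 and 376 and then 1770 and 1677 CPM.

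The makeup of the family is the share of each member in the summed TIMP UMIs of a class, a measure that no scaling of libraries touches. In smooth muscle-like cells, Timp4 made up 51.5% and 42.2% of TIMP UMIs in Control and 0.652% and 0.959% in Fracture, and Timp1 2.23% and 4.02% in Control and 46.6% and 59.5% in Fracture. In endothelial-like cells, Timp3 made up 44.5% and 50.3% in Control and 18.4% and 20.6% in Fracture, and Timp1 3.74% and 3.78% in Control and 42.2% and 36.9% in Fracture. Both vessel classes thus came to hold TIMP UMIs mostly of Timp1 and Timp2. The share of Timp1 was also higher in both Fracture preparations in erythroid-like, granulocyte-like and megakaryocyte-like cells. In erythroid-like cells it was 33.8% and 38.7% in Control and 73.45% and 66.5% in Fracture. Those shares rest on 24 and 43 UMIs of Timp1 in Control and 390 and 218 in Fracture. The part of free RNA in the makeup of any class was not tested.

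BMSC-like cells moved from a majority of Timp2 (53.3% and 61.0%) to a majority of Timp1 (64.9% and 61.7%). In osteoblast-like cells Timp1 was already at 67.8% and 68.4% in Control and reached 84.0% and 83.5% in Fracture. In chondrocyte-like cells it went from 51.9% and 54.1% to 65.9% and 64.3%, and in fibroblast-like cells from 44.4% and 41.5% to 55.5% and 53.4%. The groups did not overlap in any of these (p = 0.333, two-sided exact permutation test, the smallest value that 2 against 2 preparations allow, so that no share could pass 0.05).

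**Figure D4:**
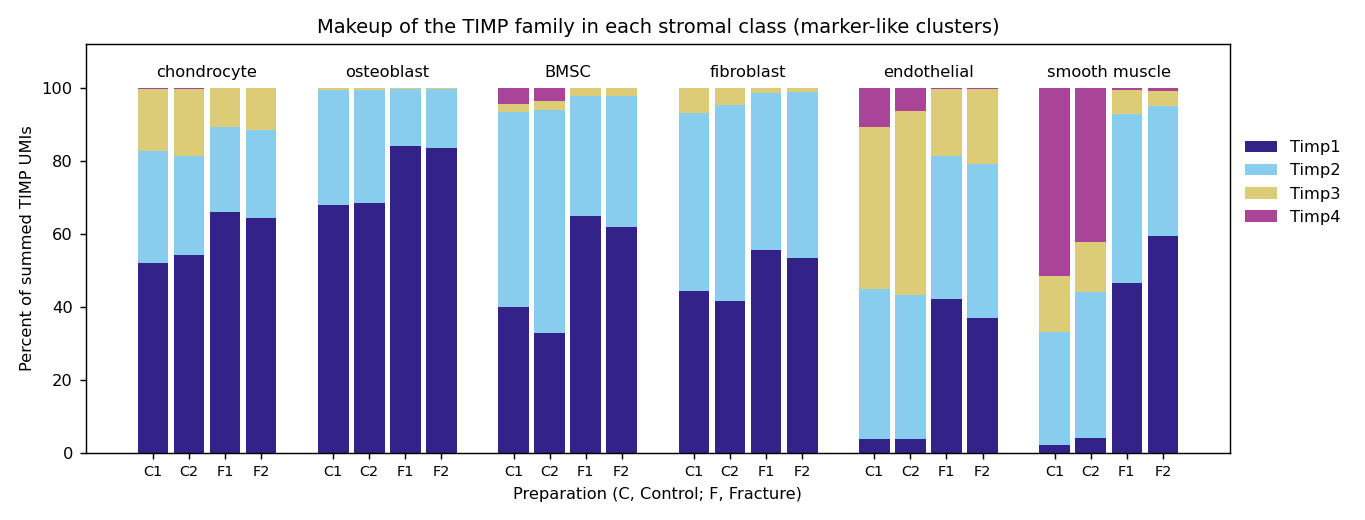
Share of each TIMP gene in the summed TIMP UMIs (percent) of the 6 stromal classes, with a bar for each Control (C) and Fracture (F) preparation. The share of Timp1 is larger in both Fracture bars than in both Control bars of every class, and the Timp4 part of the smooth muscle-like bars goes from 51.5% and 42.2% to under 1%.

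The share of cells with at least 1 UMI was taken after each cell had been thinned to 1000 UMIs, which left out 304 Control and 0 Fracture cells. Erythroid-like cells, which should lack TIMP transcripts, gave the background. Their median depth was 5900 UMIs in Control and 7029.5 in Fracture. They held Timp1 in 0.364% and 0.175% of cells in Control and 9.14% and 5.32% in Fracture, so that a positive cell means less in Fracture.

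Timp1 was found in 10.8% and 6.98% of BMSC-like cells in Control and 53.1% and 48.5% in Fracture, at median depths of 5820 and 8536 UMIs before thinning. In fibroblast-like cells the share went from 18.1% and 16.7% to 63.3% and 58.8% (median depths 7065 and 10260.5 UMIs), in osteoblast-like cells from 17.5% and 12.1% to 55.6% and 53.5% (19038 and 11526 UMIs) and in chondrocyte-like cells from 19.2% and 21.4% to 39.8% and 39.1% (15100 and 12730 UMIs). The groups did not overlap in any of these 4 classes.

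In endothelial-like cells Timp1 was found in 1.42% and 1.37% of Control and 13.5% and 10.0% of Fracture cells (4539 and 7847 UMIs), and in smooth muscle-like cells in 1.397% and 1.42% and then 20.8% and 25.8% (4758 and 7697 UMIs). Timp2 was found in 58.8% and 52.3% of fibroblast-like cells in Control and 76.5% and 72.9% in Fracture, against 0.525% to 5.08% of erythroid-like cells. Its share overlapped between the groups in chondrocyte-like and endothelial-like cells (p = 1.00 in both, two-sided exact permutation test) and in smooth muscle-like cells, at 22.8% and 21.8% in Control and 32.1% and 22.75% in Fracture (p = 0.667, same test). Timp3 was found in 21.0% and 20.6% of endothelial-like cells in Control and 9.98% and 9.60% in Fracture, with at most 0.761% of erythroid-like cells. Timp4 was found in 30.5% and 17.5% of smooth muscle-like cells in Control, and in 0 of 168 and 1.80% in Fracture. That 0 allows a share of up to 1.79% only of cells thinned to this depth, and without thinning Timp4 was found in 57.7% and 39.8% of smooth muscle-like cells in Control and 4.17% and 4.79% in Fracture. Where the groups did not overlap, p was 0.333 (two-sided exact permutation test), the smallest value this design allows.

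Free RNA was followed by setting the level of a gene in a class against its level over all cells, beside markers of chondrocytes. In endothelial-like cells the percentage for Timp1 was 10.4% and 12.5% in Control and 29.2% and 24.8% in Fracture. The 10 chondrocyte markers detected stood there at 3.67% to 10.7% and 3.65% to 9.74% in Control and at 20.2% to 23.8% and 19.3% to 23.8% in Fracture, and none of them was at 0. Their summed level in endothelial-like cells was 2539 and 1177 CPM in Control and 15430 and 14830 CPM in Fracture. Timp1 was thus only just above these chondrocyte markers in Fracture. The summed osteoblast markers stood in endothelial-like cells of Fracture at 4012 and 5073 CPM, against 16800 and 19050 CPM over all cells. The fibroblast markers stood there at 316 and 242 CPM, against 704 and 801 CPM over all cells. The part of free RNA in the rise of Timp1 in endothelial-like cells was not tested.

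In smooth muscle-like cells the percentage for Timp1 was 49.1% and 77.7% in Fracture. The chondrocyte markers were at 10.0% to 20.8% and 9.52% to 16.9%, while in Control 2 the lowest of them was at 0. The summed fibroblast markers stood in smooth muscle-like cells of Fracture at 1795 and 2402 CPM, above the 704 and 801 CPM over all cells. Their part in the value of Timp1 was not tested. In erythroid-like cells Timp1 went from 7.50 and 1.82 CPM to 224 and 94.3 CPM (5.63, SE 0.82, edgeR adjusted p 0.0491, where 2.36% of genes were called). The Fracture levels are 25.9% and 11.7% of what all cells together held, beside chondrocyte markers at 2.998% to 14.7% and 3.55% to 10.9%. Timp2 in endothelial-like cells stood at 64.8% and 62.1% in Fracture and Timp3 at 119% and 119%, well above every chondrocyte marker.

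**Figure D5:**
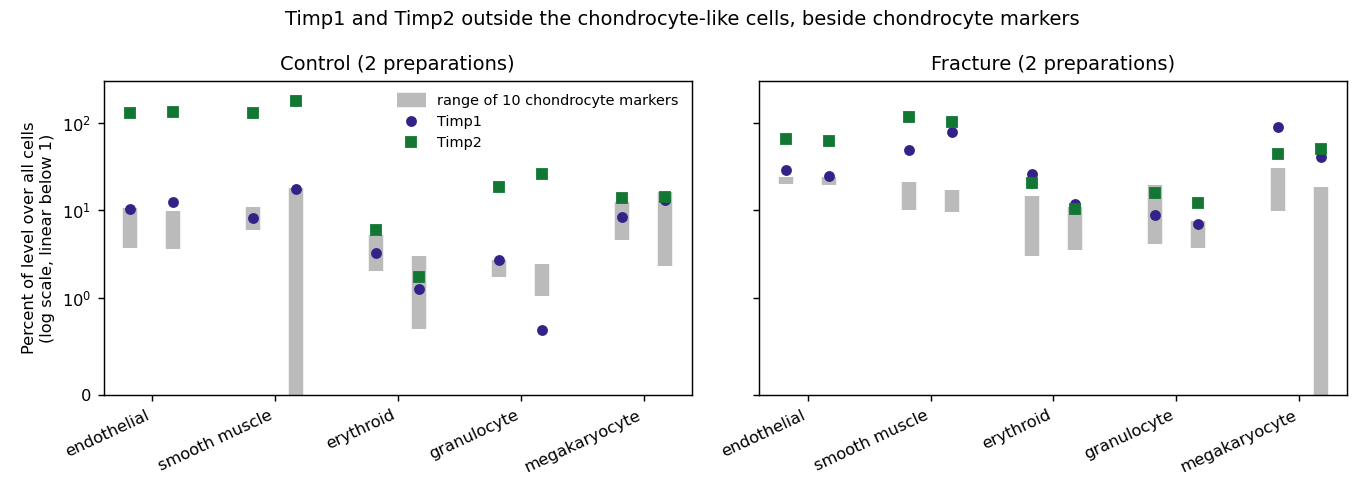
Level of Timp1 and Timp2 in endothelial-like, smooth muscle-like and blood classes as a percentage of the level over all cells (log scale, linear below 1), in each preparation, beside grey bars for the range of 10 chondrocyte markers. In Fracture, Timp1 in endothelial-like cells (29.2% and 24.8%) lies just above the bars, and in smooth muscle-like cells (49.1% and 77.7%) further above them. Markers of other cell types are not drawn. In Fracture the summed fibroblast markers stood at 704 and 801 CPM over all cells. They stood at 316 and 242 CPM in endothelial-like and 1795 and 2402 CPM in smooth muscle-like cells.

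The targets and partners of TIMPs were counted in lists. Of 15 secreted MMP genes, 13 were tested over stromal cells, of which 7 rose and 2 fell (median log2 fold change 0.549, against -0.017 over all genes). Mmp13, the main collagenase of mouse bone and cartilage, rose from 603 and 631 to 1186 and 1219 CPM (1.17, edgeR adjusted p 0.00558). Mmp2, the gelatinase that Timp2 binds, rose from 211 and 169 to 348 and 343 CPM (1.07, edgeR adjusted p 0.0114). Mmp3 (3.12), Mmp10 (2.83) and Mmp12, with 2 and 1 UMIs in Control and 54 and 33 in Fracture, rose as well, and Mmp27 (-1.63) and Mmp8 (-0.90) fell, all past the same test, where 18.5% of all genes rose and 21.1% fell.

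By class, secreted MMPs rose and none fell in 7 of 10 tested in chondrocyte-like, 4 of 12 in osteoblast-like, 8 of 12 in BMSC-like, 5 of 8 in fibroblast-like, 5 of 10 in endothelial-like and 4 of 6 in smooth muscle-like cells. Over all genes tested, the shares that rose and fell were 19.1% and 18% in chondrocyte-like, 9.98% and 6.85% in osteoblast-like and 25.7% and 26.1% in BMSC-like cells. They were 7.62% and 7.27% in fibroblast-like, 18.9% and 17.1% in endothelial-like and 14.1% and 12.5% in smooth muscle-like cells. Among the secreted MMPs, Mmp9, a gelatinase, rose in chondrocyte-like (3.46) and osteoblast-like cells (4.42), and Mmp2 in fibroblast-like (2.47) and smooth muscle-like cells (3.25). In BMSC-like cells Mmp3, stromelysin 1, stood at 0.393 and 0.633 CPM in Control and 155 and 177 CPM in Fracture (8.52, edgeR adjusted p 0.000818), and Mmp12 at 0 UMIs in Control and 2.30 and 1.59 CPM in Fracture. Mmp14, which with Timp2 activates Mmp2, rose in every stromal class, from 0.49 on the log2 scale in osteoblast-like to 2.52 in smooth muscle-like cells. In BMSC-like cells it went from 286 and 239 to 799 and 798 CPM (1.80, edgeR adjusted p 0.00155).

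Of the 7 ADAM and ADAMTS genes, which encode enzymes open to Timp3, 3 rose and 0 fell in chondrocyte-like and smooth muscle-like cells, 3 rose and 1 fell in osteoblast-like, fibroblast-like and endothelial-like cells, and 1 rose and 2 fell in BMSC-like cells. Adamts4 rose in all 6 classes, from 5.56 and 5.83 to 27.2 and 25.4 CPM in osteoblast-like cells (2.14, edgeR adjusted p 0.00238). Adamts5 fell in endothelial-like cells, from 514 and 711 to 89.0 and 90.04 CPM (-2.66, edgeR adjusted p 0.00564), in BMSC-like cells (-1.05) and in fibroblast-like cells (-1.14). Of the MMP inhibitors outside the family, 3 of 4 fell in BMSC-like cells, where 26.1% of all genes fell. They were A2m (-3.13), encoding a plasma-type inhibitor, from 233 and 334 to 25.2 and 31.4 CPM, its relative Pzp, from 40 and 37 to 1 and 3 UMIs, and Reck (-0.53), a membrane-anchored inhibitor. In smooth muscle-like cells A2m (3.87) and Tfpi2 (3.09) rose. Of the partners, Cd63, a surface receptor of Timp1, rose in BMSC-like (0.72), fibroblast-like (0.87), endothelial-like (1.28) and smooth muscle-like cells (0.98), and Lrp1, an endocytic receptor that takes up Timp3, rose in osteoblast-like (0.43) and endothelial-like cells (1.98). Efemp1, a matrix protein that binds Timp3, fell in BMSC-like (-3.95) and fibroblast-like cells (-1.76), and Kdr, a receptor that Timp3 binds, fell in endothelial-like cells (-0.68, from 1014 and 1150 to 609 and 636 CPM). Itga3, an integrin subunit that binds Timp2, fell in 4 of the 6 classes. All of these passed the edgeR test at an adjusted p under 0.05.

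Summed TIMP UMIs were then set against the summed UMIs of 21 MMP genes, a description of transcripts and not of inhibition. Over stromal cells the ratio was 0.575 and 0.469 in Control and 0.662 and 0.629 in Fracture. In chondrocyte-like cells it was 1.88 and 1.81 in Control and 0.719 and 0.656 in Fracture, with TIMP UMIs at 856 and 885 against 1118 and 1070 CPM and MMP UMIs at 456 and 490.3 against 1556 and 1632 CPM. By cluster the ratio was 1.68 and 1.596 and then 0.624 and 0.577 in cluster 0. It was 2.63 and 2.89 and then 3.05 and 2.78 in cluster 4, where the groups overlapped (p = 0.667, two-sided exact permutation test). Without Mmp13 the cluster 4 ratio was 2.89 and 3.03 in Control and 4.21 and 3.92 in Fracture, with no overlap. In endothelial-like cells the ratio was 2.20 and 1.66 and then 0.669 and 0.640. MMP UMIs stood there at 290 and 292 CPM in Control and 895 and 844 CPM in Fracture. In erythroid-like cells they stood at 106 and 36.2 CPM in Control and 466 and 349 CPM in Fracture. The part of free RNA in the ratios was not tested. Smooth muscle-like (3.63 and 1.93, then 0.477 and 0.898) and fibroblast-like cells (2.07 and 5.55, then 1.41 and 1.21) were also lower in Fracture. The ratio was higher in Fracture in osteoblast-like cells, at 0.312 and 0.292 and then 0.875 and 0.841, and in BMSC-like cells, at 0.225 and 0.207 and then 0.307 and 0.296. Without Mmp13 the BMSC-like ratio was 0.742 and 0.764 in Control and 0.799 and 0.810 in Fracture, a log2 difference of 0.10 in place of 0.48. That difference was 0.59 in place of 0.31 over stromal cells, -0.85 in place of -1.42 in chondrocyte-like and -0.97 in place of -1.54 in endothelial-like cells. It was -1.78 in place of -2.02 in smooth muscle-like, -1.61 in place of -1.38 in fibroblast-like and 1.54 in place of 1.51 in osteoblast-like cells. The groups overlapped in dpMSC-like cells (0.542 and 0.388, then 0.449 and 0.364). Groups did not overlap in any of the 6 classes (p = 0.333 in each, two-sided exact permutation test, the smallest it can give).

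Genes with the pattern most like each member were looked for among 6602 genes, over 24 points (6 stromal classes in 4 preparations) that share libraries and depth, and the correlations are descriptions. Nearest to Timp1 were Dap (r = 0.938), Tmem167 (0.929) and Txndc5 (0.928), to Timp2 Tmem43 (0.939), Pmepa1 (0.929) and Htra1 (0.923), to Timp3 Lmcd1 (0.941), Bcl2l1 (0.940) and Cdc42se1 (0.927), and to Timp4 Ngrn (0.948), Zfp704 (0.944) and Eif4ebp2 (0.943). Among the members, Timp1 and Timp4 had r = -0.798, Timp1 and Timp2 0.541, and the other pairs -0.26 to 0.351.

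In the blood classes only erythroid-like Timp1 was called, and not without Fracture 1 (edgeR adjusted p 0.277) or Fracture 2 (0.27). Timp3 stood out in megakaryocyte-like cells, at 143 and 105 CPM in Control and 149.9 and 26.7 CPM in Fracture, and made up 74.8% and 72.3% of their TIMP UMIs in Control and 13.9% and 4.95% in Fracture. These Fracture values rest on 52 and 9 UMIs of 26 and 27 cells. There the edgeR test called 0 of 8675 genes, with 2658 at an unadjusted p under 0.05. Granulocyte-like cells, where 4.72% of genes were called, held Timp2 as their main member in Control, at 70.9% and 93.4% of TIMP UMIs.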

How the data were processed

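Single-cell libraries of mouse femoral stromal cells were made with a 3 prime droplet kit. The authors deposited raw UMI counts per gene and cell for 8 libraries. The submitters' processing notes name bcl2fastq 2.19.1.403, UMI-tools 1.0.0, STAR 2.7.3a and featureCounts 1.6.4 with mouse build mm10; whether counting used the strand is not given in the sources used here. Libraries held 56543151 to 89126291 UMIs, and intervals and floors cover counting error only.

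Cells with 500 to 6000 genes and at most 25% mitochondrial UMIs were kept. Cells were integrated and clustered with Seurat 5.3.0 (12 components, resolution 0.1) on 1929 of 2000 variable genes, and classes were named from markers. Fibroblast-like, osteoblast-like and BMSC-like cells (14651) were clustered again (13 components, resolution 0.08). Doublets were called with scrublet in scanpy 1.11.5 and kept in the values reported. Counts were summed per preparation and class of at least 20 cells, the 2 libraries of a preparation having differed beyond sampling noise, and tested with edgeR 4.0.16 in R 4.3.3 (quasi-likelihood, TMM, filterByExpr, Benjamini-Hochberg over all genes tested in a class, called at an adjusted p under 0.05). Differences between classes were adjusted over all genes of a pair of classes, not over the TIMP tests alone as planned. Shares, makeup and ratios were compared with two-sided exact permutation tests. The edgeR script was tested on simulated data. Alternatives were DESeq2 1.42.0 and its size factors, no filter, a replicate block, each preparation left out, libraries as the unit, doublets removed, no integration, a marker gate and a depth minimum.

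The members and lists were chosen with earlier results of these data known. All 4 members are named, with, per list and class, up to 3 called genes with the largest rise and up to 3 with the largest fall. Mmp13 and Mmp2 over stromal cells, Mmp14, Adamts4, Cd63 and other list genes outside that rule were named for their role after their values were seen.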

Additional observations from a re-analysis of the deposited data

Results flagged for a closer look

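The results given here are differences between 2 stromal classes in the log2 fold change of Fracture against Control, each past the edgeR test of the class-by-group term (Benjamini-Hochberg adjusted p under 0.05). The pairs share preparations and are not independent of each other.

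For Timp1, the effect in chondrocyte-like cells was below that in osteoblast-like (-1.51), BMSC-like (-1.85), endothelial-like (-2.71) and smooth muscle-like cells (-3.86). The chondrocyte-like class joins 2 clusters. Timp1 went from 604 and 663 to 723 and 685.5 CPM in cluster 0 and from 241 and 230 to 812 and 705 CPM in cluster 4. The effect in fibroblast-like cells was below that in endothelial-like (-2.23) and smooth muscle-like cells (-3.39). Osteoblast-like cells stood above fibroblast-like (0.96) and below endothelial-like (-1.20) and smooth muscle-like cells (-2.42). BMSC-like cells likewise stood above fibroblast-like (1.35) and below endothelial-like (-0.94) and smooth muscle-like cells (-2.11). In Fracture, Timp1 stood at 253 and 199 CPM in endothelial-like and 224 and 94.3 CPM in erythroid-like cells. The part of free RNA in these differences was not tested.

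For Timp2, the effect in chondrocyte-like cells was below that in osteoblast-like (-0.81), BMSC-like (-0.91), fibroblast-like (-0.52) and smooth muscle-like cells (-0.49). The effect in endothelial-like cells was exceeded by those in osteoblast-like (0.89), BMSC-like (0.91) and fibroblast-like cells (0.60).

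For Timp3, osteoblast-like cells stood above fibroblast-like (2.89), endothelial-like (2.75) and smooth muscle-like cells (2.63), and BMSC-like cells above fibroblast-like (2.93), endothelial-like (2.73) and smooth muscle-like cells (2.67). Taken as a whole class, chondrocyte-like cells lay between. They stood below osteoblast-like (-1.74) and BMSC-like cells (-1.81) and above fibroblast-like (1.17), endothelial-like (0.97) and smooth muscle-like cells (0.88). Their clusters moved in opposite directions. Timp3 went from 210.2 and 227 to 114.8 and 124 CPM in cluster 0 and from 67.9 and 78.0 to 146 and 124 CPM in cluster 4.

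For Timp4, the fall in chondrocyte-like cells was smaller than in BMSC-like (1.49), endothelial-like (2.22) and smooth muscle-like cells (2.41). The difference from BMSC-like cells did not pass with called doublets removed (1.66, edgeR adjusted p 0.0535) or without Control 1, Fracture 1 or Fracture 2 (0.174, 0.0971 and 0.282), and that from endothelial-like cells did not pass without either Fracture preparation (0.0949 and 0.153).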

How the results depend on the processing

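Of the alternatives to the log2 fold changes of TIMP genes, 645 kept direction and side of the threshold, 90 lost a call, 55 gained one and 1 changed sign. The call of Timp3 over stromal cells was lost with no filter on low counts (0.38, adjusted p 0.0559), with called doublets removed (0.35, 0.0514) and with the highest 6% of doublet scores removed (0.39, 0.0621), a setting chosen after seeing the data. Across fits that leave out 1 preparation, which assume that a lone preparation varies like the other group, the stromal log2 fold change ranged from 1.61 to 2.05 for Timp1, 0.64 to 0.93 for Timp2, 0.26 to 0.50 for Timp3 and -6.06 to -5.08 for Timp4. In those fits Timp1 was called in 2 to 6 of the 6 stromal classes, Timp2 in 1 to 6, Timp3 in 1 to 6 and Timp4 in 2 to 4, and in the 4 stromal subclasses 3 of 15 and 3 of 14 TIMP tests were called without Fracture 1 and Fracture 2, 13 of 13 and 15 of 15 without Control 1 and Control 2, and 13 of 13 with all preparations. Of all genes in the dpMSC-like, mpMSC-like, osteoblast-like and fibroblast-like subclasses, 54%, 28%, 15.5% and 15.3% were called with all preparations, 0% to 24.8% without a Fracture preparation and 26.2% to 59.2% without a Control preparation. Pairs of classes whose effects differed numbered 10 to 14 for Timp1, 4 to 10 for Timp2, 10 to 12 for Timp3 and 1 to 3 for Timp4. The fold change of Timp2 in endothelial-like cells was -0.054 without Control 2. Over stromal cells, 168 and 366 genes were called without Fracture 1 and Fracture 2 and 11932 and 11492 without Control 1 and Control 2, against 7852 with all preparations. The cause of these differences was not tested.

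With a replicate block, Timp2 was called in 2 of the 6 classes in place of 4, and Timp3 over stromal cells was not called (0.37, adjusted p 0.0619). The labels give same-numbered preparations no shared source. The correlation over genes of their deviations was -0.019 to 0.119. With 2 preparations a group, it cannot decide whether the numbers pair the samples. In fibroblast-like cells the block also ended the calls of Timp1 (0.0604), Timp2 (0.0974) and Timp3 (0.0643). Of all genes, the block left 24.1% called in chondrocyte-like, 8.83% in osteoblast-like and 47.9% in BMSC-like cells, in place of 37.1%, 16.8% and 51.8%. It left 2.62% in fibroblast-like, 27.4% in endothelial-like and 14.3% in smooth muscle-like cells, in place of 14.9%, 35.9% and 26.6%. Over stromal cells it left 31.5% in place of 39.6%.

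The difference in the share of cells with Timp2, in percentage points, was -0.80 in chondrocyte-like cells thinned to 3000 UMIs, -0.30 for cells with at least 2 UMIs, -0.15 without Fracture 2, and from -0.58 (without Control 2) to 0.665 across preparations left out. In endothelial-like cells it was 19.5 without thinning, 0.54 at 3000 UMIs and -1.335 to 0.70 across preparations left out. The difference in the share with Timp4 ranged from -0.125 to 0.022 in chondrocyte-like cells across preparations left out, and in osteoblast-like cells -0.40 without thinning and -0.031 at 3000 UMIs. The change of Timp2 in the makeup of endothelial-like cells ranged from -1.09 to 2.04 percentage points across preparations left out, was -0.29 without Control 2 and 3.06 with called doublets removed, against 0.478 with all cells. The difference in the ratio of TIMP to MMP UMIs kept its direction without Mmp13 over stromal cells and the 6 classes. Leaving out 1 preparation could not have changed that direction, since the groups did not overlap in any of these. The size of the difference did not always hold, and without Mmp13 the BMSC-like log2 difference was 0.10 in place of 0.48. The stromal, chondrocyte-like and endothelial-like differences changed in size too, as given above.

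The doublet caller marked 718 cells (1.58%), with 0.02% and 0.08% in 2 Fracture libraries, so that its removal says little of doublets there. Megakaryocyte-like cells could not be tested without integration or with the highest doublet scores removed, for want of cells. With 2 preparations a group, permutation tests cannot reach 0.05, and Timp4 in Fracture rests on few UMIs in every class.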
